A study of Homo sapiens with 8 samples.

Results

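The RNA of MCF10A cells 3 days after 20 Gy of ionizing radiation (IR) was compared, gene by gene, with that of cells kept in the solvent dimethyl sulfoxide (DMSO). All loci with a gene symbol were taken, which were 9762 of the 14944 loci in the deposited table. Where several loci carried 1 symbol, the locus with the highest mean was kept, so that 9463 genes were compared, and 8666 of them reached a mean of 1 FPKM (sequenced fragments normalized for transcript length and for the size of the library) over the 8 libraries of the study and were tested. MCF10A is a non-tumorigenic human breast epithelial line that immortalized spontaneously and is known to lack the CDKN2A locus, so a single line of cells without p16INK4A stands for breast epithelium here.

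The study had 4 groups of 2 libraries, lettered A and B. They were DMSO, the ATR kinase inhibitor AZD6738 at 250 nM, IR at 20 Gy, and both agents together (AZD6738+IR). Cells received DMSO or the inhibitor 2 hours before exposure, and RNA was taken with that treatment still present at 3 days. All groups, the DMSO controls included, grew in DMEM/F-12 with horse serum, epidermal growth factor, hydrocortisone (a glucocorticoid), cholera toxin (which raises cyclic AMP) and insulin. Nothing in the labels tells whether A and B were grown as separate cultures, and p-values therefore weigh differences against a spread between libraries that may be only technical.

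Ionizing radiation breaks both strands of DNA, and the kinases ATM and ATR answer by stabilizing the transcription factor p53 and holding the cell cycle. p53 raises CDKN1A (p21), an inhibitor of cyclin-dependent kinases, and the DREAM complex then represses genes of replication and mitosis. Cells that stay arrested may take on a senescent state, known for loss of lamin B1 and HMGB2 and for secretion of cytokines and proteases. DNA that reaches the cytosol can be read by the cGAS-STING pathway, which induces interferon genes. Basal breast cells share with epidermal keratinocytes a program of stratified differentiation, with cornified envelope proteins and S100 proteins.

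The summed level per library was 870379 and 874865 FPKM in DMSO and 892232 and 905755 FPKM in IR, and the 4 most abundant loci took 53.6% to 53.8% of it in DMSO and 56.5% to 56.7% in IR. The file names no unit, and FPKM was taken from the values and the tools named by the submitters, while TPM is possible. It gives no read counts, so the depth is unknown. Over the tested genes the median absolute log2 difference was 0.064 between the DMSO libraries, 0.049 between the IR libraries, and 0.30 to 0.31 for any IR library against any DMSO library. Markers were checked against the label of breast epithelium. Of 12 basal markers, 9 were found and their summed level was 2330 and 2335 FPKM in DMSO and 3231 and 3242 FPKM in IR. Of 12 luminal markers, 4 were found, with sums of 76.8 and 79.0 FPKM and of 166 and 166 FPKM. The luminal sum followed mainly KRT8, with means of 44.8 FPKM in DMSO and 135 FPKM in IR. MUC1 was also called higher, EPCAM was lower and FOXA1 was not called. Among the basal markers found, KRT15 and TP63 were lower, EGFR was not called and the others were higher, so neither set moved as a whole. Of 9 fibroblast markers, 2 were found (sums of 4.41 and 4.98 FPKM, then 12.3 and 13.1), of 10 immune markers, 4 (24.6 and 24.2, then 27.0 and 25.8), of 6 neural and melanocyte markers only TUBB3 (25.5 and 28.2, then 45.2 and 44.7), of 7 endothelial markers only KDR, under 1 FPKM in all 4 libraries, and of 5 adipocyte markers none. The part of these markers in the results was not tested. KRT5, CDKN2B, MYC, CXCL8 and IL1B have no entry under those symbols among the genes compared and were not analysed here.

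Irradiation was followed by a broad shift that was mostly small in size. At an adjusted p under 0.05 (limma, Benjamini-Hochberg over all loci tested), 5554 of 8666 genes were called (64.1%), 2066 higher (23.8%) and 3488 lower (40.2%). The median log2 fold change was -0.10, the 10th percentile -0.65 and the 90th percentile 0.54, against a median standard error (SE) of 0.06. That median depends on the scaling, and was -0.03 with libraries centred on their median, -0.05 under quantile normalization and -0.06 when scaled without the 4 most abundant loci. The error given with a log2 fold change is its SE throughout, and that given with a mean level is an SD (n = 2). A bare number in parentheses after a gene is its log2 fold change, and rises are in log2 units. A change of at least 1 log2 unit was called for 292 genes upward (3.37%) and 270 downward (3.12%), and one of at least 2 log2 units for 54 upward (0.623%) and 12 downward (0.138%). So calls were more often downward, while the largest changes were mostly upward. The shares of 23.8% higher and 40.2% lower are the base for every count of calls below. The libraries of the groups did not overlap for 7358 genes (84.9%). Over all 12809 loci tested, symbol or not, 3040 were higher (23.7%) and 4872 lower (38.0%), with 550 (4.29%) and 363 (2.83%) at 1 log2 unit or more. Fold changes on the log2(FPKM + 1) scale understate the change of low genes. A gene under 1 FPKM in both libraries of a group passed the filter of a mean of 1 FPKM only through other groups. Its call then rests in part on the groups where it is high. Below this holds, in DMSO, for A2ML1, IFIT1, CSF1R, ATF3, MYL9, CRYAB, ACSL5 and GSDMC, and in IR for CBS and SLC1A4. It also holds for the genes where it is repeated, and the calls of all these genes support nothing by themselves. Bulk RNA cannot tell fewer cells of a kind from less RNA per cell, and this holds for every value here.

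**Figure D1:**
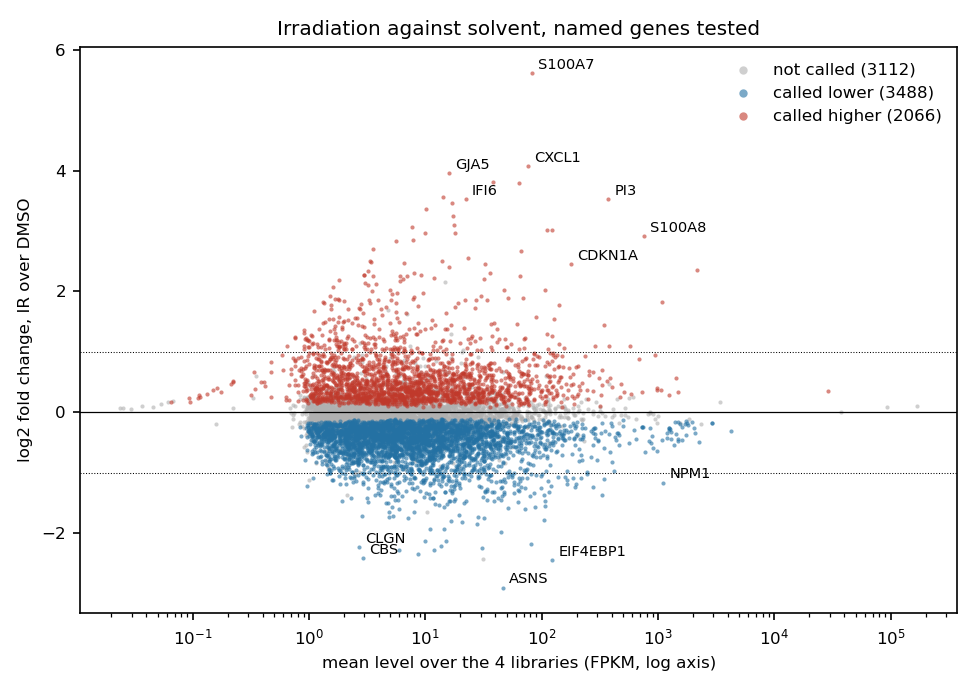
Log2 fold change of IR over DMSO (y) against the mean level over the 4 libraries in FPKM (x, log axis), 1 point for each of the 8666 genes tested. Red points are the 2066 genes called higher, blue points the 3488 called lower and grey points those not called, and the dotted lines mark 1 log2 unit. The highest points, led by S100A7 at 5.62, lie farther from 0 than the lowest, led by ASNS at -2.90.

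The 20 largest rises included secreted, surface and interferon-induced genes. S100A7, psoriasin, an antimicrobial S100 protein (chromosome 1, 153457744 to 153460651, GRCh38.p14), stood at 2.25 and 2.4 FPKM in DMSO and 185 and 142 FPKM in IR (log2 fold change 5.62 ± 0.20, adjusted p = 2.05e-05). PI3, elafin, an inhibitor of neutrophil elastase, stood at 58.8 and 58.4 FPKM in DMSO and 756 and 621 FPKM in IR (log2 fold change 3.52 ± 0.17, adjusted p = 3.88e-05). CD24, a glycosylphosphatidylinositol-anchored surface glycoprotein, stood at 23.4 and 29.1 FPKM in DMSO and 219 and 217 FPKM in IR (log2 fold change 3.02 ± 0.10, adjusted p = 1.84e-05). In each of these genes both IR libraries were far above both DMSO libraries. GJA5, the gap junction protein connexin 40 better known from heart and vessel, stood at 1.06 and 1.02 FPKM in DMSO and 30.6 and 31 FPKM in IR (log2 fold change 3.96 ± 0.05, adjusted p = 2.88e-06). IGFL1, a small secreted ligand of skin (4.26 and 4.21 FPKM in DMSO and 74.2 and 70.4 FPKM in IR), PDZK1IP1, a membrane protein also called MAP17 (7.61 and 8.03 FPKM in DMSO and 128 and 114 FPKM in IR), and C15orf48, a mitochondrial protein of inflamed epithelium (3.09 and 3.46 FPKM in DMSO and 34.7 and 30.1 FPKM in IR), rose by 3.81, 3.79 and 2.96 log2 units. SAA4, a serum amyloid A apolipoprotein, stood at 22.2 and 25.2 FPKM in DMSO and 204 and 192 FPKM in IR and rose by 3.01, although it lies beside close relatives in the genome. Freedom from overlap between the groups was a condition for naming these genes, and 84.9% of all tested genes met it.

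The 20 largest falls included genes of amino acid supply, translation control and chromatin. ASNS, asparagine synthetase (chromosome 7, 97851677 to 97928441), stood at 84.9 and 79.6 FPKM in DMSO and 11.7 and 8.84 FPKM in IR (log2 fold change -2.9 ± 0.13, adjusted p = 2.86e-05). EIF4EBP1, a repressor of cap-dependent translation, stood at 228 and 193 FPKM in DMSO and 40.7 and 34.8 FPKM in IR (log2 fold change -2.45 ± 0.11, adjusted p = 3.19e-05). CBS, cystathionine beta-synthase of the transsulfuration pathway, stood at 6.73 and 4.52 FPKM in DMSO and 0.301 and 0.157 FPKM in IR (log2 fold change -2.41 ± 0.17, adjusted p = 9.80e-05). Both IR libraries were far below both DMSO libraries in each. TRIB3, a pseudokinase induced by the integrated stress response, fell from 132 ± 19.5 to 28.4 ± 0.698 FPKM. Genes of other roles fell as well. FIGF, the lymphatic growth factor VEGF-D, stood at 14.5 and 15.6 FPKM in DMSO and 2.14 and 2.18 FPKM in IR, and MACROD1, an ADP-ribosyl hydrolase, at 10.2 and 10.8 FPKM in DMSO and 1.28 and 1.45 FPKM in IR. TCEA1, the elongation factor TFIIS, stood at 50.1 and 52 FPKM in DMSO and 9.45 and 10.5 FPKM in IR (log2 fold change -2.25 ± 0.19, adjusted p = 0.0002). Also among the 20 largest falls were CLGN, a chaperone known from the testis (-2.23), PEMT, which makes phosphatidylcholine (-2.12), ETNK2, an ethanolamine kinase (-1.82), CCDC85B (-2.12), and AXL, a receptor tyrosine kinase (-1.74), all as log2 fold changes.

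**Figure D2:**
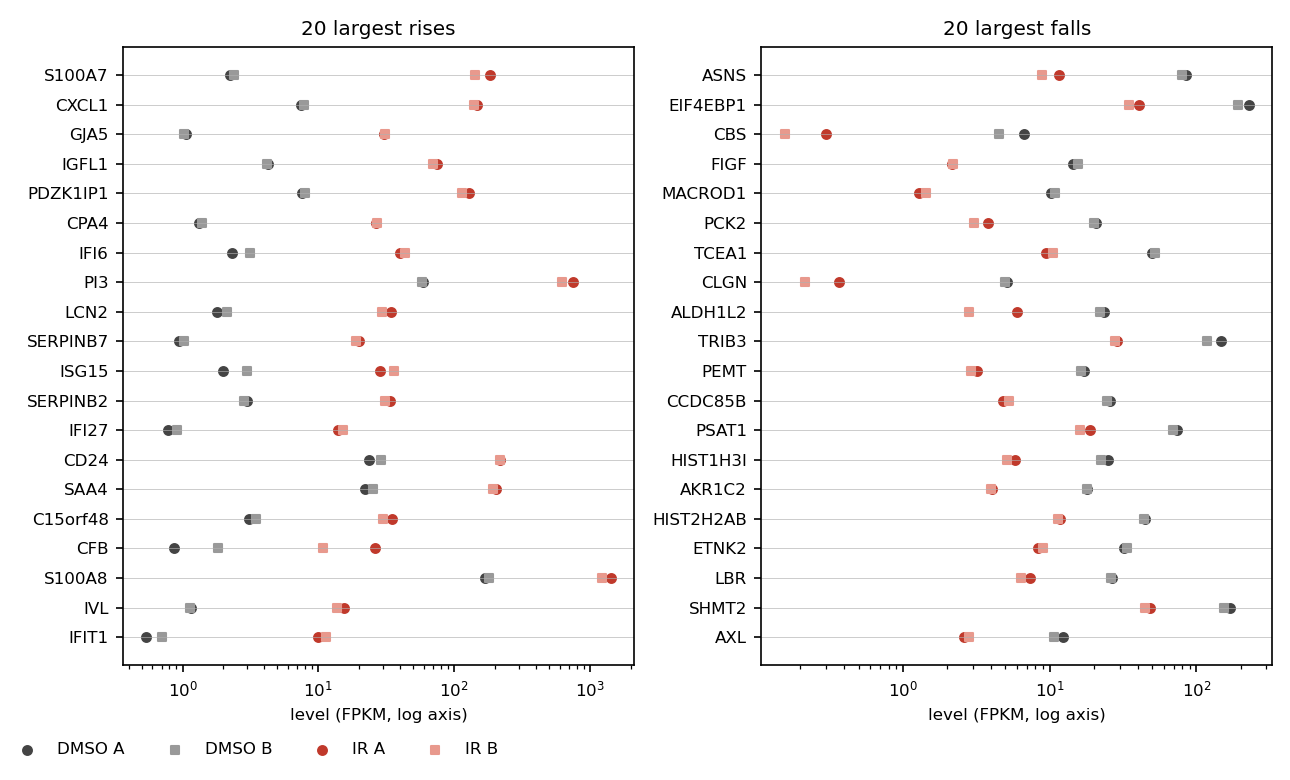
Level in FPKM (log axis) of the 20 genes with the largest called rise and the 20 with the largest called fall, 1 point for each of the 2 DMSO libraries (dark and light grey) and the 2 IR libraries (dark and light red). Genes were shown only if their IR and DMSO libraries did not overlap, which held for 84.9% of all tested genes. The replicate points lie close together apart from CFB, CBS, CLGN and ALDH1L2.

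The target genes of p53 were mostly higher. Of 34 p53 targets tested, 25 were higher (73.5%, against 23.8% of all genes) and 3 lower (8.82%, against 40.2%). The median log2 fold change was 0.45 against -0.10 for all genes. CDKN1A (p21) stood at 55.2 and 53.1 FPKM in DMSO and 309.7 and 295 FPKM in IR (log2 fold change 2.46 ± 0.07, adjusted p = 1.36e-05). PLK2, a Polo-like kinase, rose from 21.1 ± 0.976 to 81.4 ± 1.07 FPKM, TIGAR, a fructose bisphosphatase that turns sugar to the pentose phosphate pathway, from 3.53 ± 0.0215 to 10.2 ± 0.118 FPKM, and MDM2, the ubiquitin ligase that degrades p53, from 42.5 ± 0.618 to 99.9 ± 0.564 FPKM. Their log2 fold changes were 1.9, 1.3 and 1.21, and that of TP53INP1, a stress protein of autophagy and death, was 1.19. The 6 targets not called were BBC3, BLOC1S2, DDB2, PHLDA3, POLH and RRM2B. The 3 lower targets were CMBL, a hydrolase (-0.64), FUCA1, a lysosomal fucosidase (-0.43), and ANKRA2 (-0.12). The ANKRA2 call was lost without any 1 of the 4 IR and DMSO libraries (adjusted p from 0.0872 to 0.193), under each of the 3 other scalings (0.128 to 0.302), with only the DMSO and IR libraries (0.0676), blocked by letter (0.0521) and without either AZD6738 library (0.0773 and 0.0776).

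Cell cycle genes split between the mitotic cyclins, which fell, and the D cyclins, which rose. Of 39 cyclins, cyclin-dependent kinases and regulators, 21 were lower (53.8%, against 40.2% of all genes) and 7 higher (17.9%, against 23.8%). The list median was -0.27. CCNB2 stood at 15.6 and 16 FPKM in DMSO and 5.46 and 5.67 FPKM in IR (log2 fold change -1.36 ± 0.04, adjusted p = 1.54e-05). CCNA2, CCNB1, CDC25C and CDK4 fell, with log2 fold changes of -1.16, -1.05, -1.09 and -0.86. These encode cyclins A2 and B1, the phosphatase that activates CDK1, and the kinase partner of D cyclins. CCND2, cyclin D2, stood at 14.9 and 14.1 FPKM in DMSO and 35.7 and 37 FPKM in IR (log2 fold change 1.27 ± 0.05, adjusted p = 2.40e-05), CCND1, cyclin D1, at 37.9 and 38.9 FPKM in DMSO and 70.3 and 70.6 FPKM in IR (log2 fold change 0.86 ± 0.04, adjusted p = 4.08e-05), and CCNE1, cyclin E1, at 3.59 and 3.41 FPKM in DMSO and 4.56 and 5.07 FPKM in IR (log2 fold change 0.37 ± 0.06, adjusted p = 0.00224). The count of higher members was 4 without DMSO library B and 4 without IR library A, and E2F3 (0.31) lost its call without DMSO B, IR A or IR B (adjusted p of 0.0914, 0.0562 and 0.0862).

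Mitotic genes were mostly lower. Of 57 genes of spindle, kinetochore and cytokinesis, 49 were lower (86.0%, against 40.2% of all genes) and 2 higher (3.51%, against 23.8%). The list median was -0.72. NUF2, a subunit of the kinetochore complex that binds microtubules, stood at 5.99 and 5.47 FPKM in DMSO and 1.71 and 1.54 FPKM in IR (log2 fold change -1.36 ± 0.07, adjusted p = 4.24e-05). CENPF, a kinetochore protein made in G2, stood at 22.1 and 21.1 FPKM in DMSO and 7.59 and 8.54 FPKM in IR, and BIRC5, survivin of the chromosomal passenger complex, at 12.2 and 11.2 FPKM in DMSO and 4.17 and 4.41 FPKM in IR. CENPH and MAD2L1, the latter a spindle checkpoint protein, had log2 fold changes of -1.33 and -1.18. MKI67, the proliferation antigen Ki-67, fell from 6.9 ± 0.748 to 3.2 ± 0.145 FPKM (log2 fold change -0.91 ± 0.07, adjusted p = 0.000142). The ratio of DMSO to IR means ran from 2.15-fold for MKI67 to 3.52-fold for NUF2 among these 6 genes, so that their RNA was reduced and not absent. The 2 higher members were the tubulins TUBB4B (0.91) and TUBA1B (0.38), genes with near-identical copies, and TUBA1B lost its call without any 1 of the 4 libraries (adjusted p from 0.0713 to 0.0952).

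The promoters of NUF2 and CENPF are shown because both hold the cell cycle homology region (CHR), the element through which DREAM and B-MYB act on mitotic genes. Letters searched on both strands were TTTGAA, over 250 bases before and 50 after the start site, and capitals mark each match. The sequences are from RefSeq on GRCh38.p14, at chr1:163321704-163322003 on the plus strand for NUF2 and chr1:214602945-214603244 on the plus strand for CENPF.
NUF2: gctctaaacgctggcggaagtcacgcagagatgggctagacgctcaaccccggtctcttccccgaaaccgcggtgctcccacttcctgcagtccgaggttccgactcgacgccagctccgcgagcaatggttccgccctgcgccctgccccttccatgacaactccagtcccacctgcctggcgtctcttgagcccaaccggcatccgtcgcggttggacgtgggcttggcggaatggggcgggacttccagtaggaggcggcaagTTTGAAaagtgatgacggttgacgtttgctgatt
CENPF: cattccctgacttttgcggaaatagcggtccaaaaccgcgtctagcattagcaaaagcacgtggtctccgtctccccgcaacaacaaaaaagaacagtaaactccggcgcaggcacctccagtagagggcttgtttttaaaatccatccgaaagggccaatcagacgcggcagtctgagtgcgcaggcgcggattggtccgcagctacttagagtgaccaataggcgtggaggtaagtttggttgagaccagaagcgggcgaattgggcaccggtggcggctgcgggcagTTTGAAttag
The match began 16 bases after the start in NUF2 and 40 bases after it in CENPF. TTTGAA was in 15.6% of all 27305 RefSeq promoters, in 10.2% of the 6797 tested genes with a promoter, and in 20.5% of the 219 such genes called lower by at least 1 log2 unit, or 17.6% of those without the histone genes. In the 224 genes called higher by at least 1 log2 unit it was in 10.7%. A match of letters is a description and not evidence of binding.

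Replication and nucleotide genes were mostly lower. Of 59 genes, 43 were lower (72.9%, against 40.2% of all genes) and 3 higher (5.08%, against 23.8%), with a median of -0.40. CDT1, which loads the replicative helicase, stood at 7.67 and 7.3 FPKM in DMSO and 2.19 and 1.85 FPKM in IR (log2 fold change -1.49 ± 0.08, adjusted p = 4.55e-05). ORC1, a subunit of the origin recognition complex, stood at 4.93 and 5.2 FPKM in DMSO and 1.22 and 1.34 FPKM in IR (log2 fold change -1.41 ± 0.06, adjusted p = 2.54e-05). The helicase subunits MCM5 and MCM6 and the ribonucleotide reductase subunit RRM1 fell, with log2 fold changes of -1.12, -1.05 and -1.08. The higher members were GINS3 (0.24), GINS1 (0.22), both of the GINS complex of the helicase, and CTPS1, which makes CTP (0.2). GINS1 lost its call without DMSO A, IR A or IR B (adjusted p of 0.0807, 0.0581 and 0.0880) and CTPS1 without DMSO B or IR B (0.0740 and 0.103) or with only the DMSO and IR libraries (0.0579), and without IR B the count of higher members was 1.

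Repair genes were mostly lower. Of 30 genes of double-strand break and crosslink repair, 23 were lower (76.7%, against 40.2% of all genes) and 2 higher (6.67%, against 23.8%). The list median was -0.26, and fewer were called lower when IR library A was left out. FANCF, of the Fanconi core complex, stood at 6.44 and 6.41 FPKM in DMSO and 3.0 and 2.99 FPKM in IR (log2 fold change -0.89 ± 0.05, adjusted p = 4.40e-05). CHEK1, the checkpoint kinase downstream of ATR, stood at 4.35 and 4.79 FPKM in DMSO and 2.07 and 2.27 FPKM in IR (log2 fold change -0.81 ± 0.06, adjusted p = 0.000105). NBN, of the complex that first binds breaks, FANCG and the nuclease subunit MUS81 had log2 fold changes of -0.59, -0.59 and -0.57. ATR itself, the kinase that AZD6738 inhibits, was higher, with 5.89 and 6.23 FPKM in DMSO and 8.12 and 7.94 FPKM in IR (log2 fold change 0.36 ± 0.04, adjusted p = 0.0008). The other higher member was PALB2, partner of BRCA2 (0.18), which lost its call without DMSO A (adjusted p = 0.0767) or IR A (0.0910).

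Genes of nuclear architecture were mostly lower. Of 46 chromatin and lamina genes, 35 were lower (76.1%, against 40.2% of all genes) and 2 higher (4.35%, against 23.8%). The list median was -0.39. LBR, the lamin B receptor that ties heterochromatin to the nuclear envelope, stood at 26.6 and 26.1 FPKM in DMSO and 7.35 and 6.36 FPKM in IR (log2 fold change -1.8 ± 0.09, adjusted p = 3.74e-05). LMNB1, lamin B1, stood at 8.63 and 8.52 FPKM in DMSO and 2.93 and 2.89 FPKM in IR (log2 fold change -1.29 ± 0.04, adjusted p = 1.48e-05). HMGB2, a chromatin protein of dividing cells, stood at 30.7 and 30.5 FPKM in DMSO and 8.86 and 8.66 FPKM in IR (log2 fold change -1.69 ± 0.13, adjusted p = 0.000127). HMGB1, its broadly expressed relative, stood at 23.6 and 19.2 FPKM in DMSO and 9.76 and 6.36 FPKM in IR (log2 fold change -1.32 ± 0.19, adjusted p = 0.00171), and HMGA1, which binds AT-rich DNA, fell, with a log2 fold change of -1.56. HMGB1 and HMGA1 have many processed pseudogenes, and how reads were shared among the copies is not stated. The 2 higher members were the histone demethylase KDM5B (0.24), which lost its call without IR A (adjusted p = 0.0581), and EED, of Polycomb repressive complex 2 (0.33), which lost it without DMSO B (0.0612) or IR B (0.0634).

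Replication-dependent histone genes were lower as a group. These genes are made in S phase and their messages are not polyadenylated, and libraries from total RNA hold them. In the major histone cluster on chromosome 6, from 26017032 to 27893891 (GRCh38.p14), 41 histone genes were tested. Of these, 38 were lower (92.7%, against 40.2% of all genes) and none was higher, with a median of -1.18. Of the 9 other genes tested in that stretch, 5 were lower (55.6%) and 1 was higher (11.1%, against 23.8% of all genes). The higher one was BTN2A1, a butyrophilin (0.5), and the lower ones were BTN3A2, HMGN4, ABT1, PRSS16 and ZNF204P. HIST1H3I, an H3 gene, stood at 25 and 22.5 FPKM in DMSO and 5.79 and 5.16 FPKM in IR (log2 fold change -1.93 ± 0.08, adjusted p = 2.43e-05). HIST2H2AB, an H2A gene of the small cluster on chromosome 1, stood at 44.8 and 44 FPKM in DMSO and 11.8 and 11.5 FPKM in IR (log2 fold change -1.85 ± 0.03, adjusted p = 6.14e-06). Histone genes of 1 family are near-identical copies, so that values of single genes are uncertain.

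Genes of ribosome production were mostly lower too. Of 51 genes of ribosome biogenesis, 36 were lower (70.6%, against 40.2% of all genes) and 2 higher (3.92%, against 23.8%). The list median was -0.34. NPM1, nucleophosmin, stood at 1482 and 1586 FPKM in DMSO and 702 and 669 FPKM in IR (log2 fold change -1.16 ± 0.07, adjusted p = 6.70e-05), NOB1, an endonuclease that trims 18S rRNA, at 93.8 and 93.3 FPKM in DMSO and 33 and 32.9 FPKM in IR (log2 fold change -1.48 ± 0.03, adjusted p = 7.47e-06), and NPM3 at 69.8 and 66.3 FPKM in DMSO and 25.8 and 27.5 FPKM in IR. WDR12, needed for the large subunit, and UTP14A, of the small subunit processome, fell, with log2 fold changes of -0.96 and -0.88. NPM1 also has processed pseudogenes. The higher members were URB2 (0.2) and NOP10, a box H/ACA protein (0.24), and NOP10 lost its call without any 1 of the 4 libraries (adjusted p from 0.0545 to 0.0746). Small nucleolar RNAs guide the modification of rRNA, and of 176 snoRNA genes tested 15 were higher (8.52%) and 35 lower (19.9%), shares under the 23.8% and 40.2% of all genes, with a median of -0.08.

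Genes of amino acid synthesis, of uptake and of charging onto tRNA were mostly lower. Of 26 synthesis and one-carbon genes, 19 were lower (73.1%, against 40.2% of all genes) and 4 higher (15.4%, against 23.8%). Of 30 transporters and tRNA synthetases, 22 were lower (73.3%) and 1 higher (3.33%). The medians were -0.37 and -0.92, the latter the lowest of the 31 lists. PSAT1, of serine synthesis, stood at 73.7 and 69.1 FPKM in DMSO and 18.8 and 16.2 FPKM in IR, and SHMT2, the mitochondrial serine hydroxymethyltransferase, at 169 and 154 FPKM in DMSO and 48.4 and 44.6 FPKM in IR (log2 fold change -1.77 ± 0.06, adjusted p = 1.68e-05). ALDH1L2, the mitochondrial formyltetrahydrofolate dehydrogenase, stood at 23.4 and 21.9 FPKM in DMSO and 5.97 and 2.8 FPKM in IR (log2 fold change -2.2 ± 0.26, adjusted p = 0.000748). PCK2, mitochondrial phosphoenolpyruvate carboxykinase, fell, with a log2 fold change of -2.28. SLC1A4 and SLC1A5 carry neutral amino acids into the cell, and stood at 5.13 and 4.6 FPKM in DMSO and 0.883 and 0.719 FPKM in IR, and at 119 and 109 FPKM in DMSO and 44 and 42.6 FPKM in IR. GARS, the glycyl-tRNA synthetase, and XPOT, which exports tRNA from the nucleus, fell, with log2 fold changes of -1.32 and -1.42. SLC7A11, the cystine carrier, had a log2 fold change of -1.44 and lost its call without DMSO A (adjusted p = 0.0532) or IR B (0.0531). SLC38A2, an amino acid carrier, went against its list, with 59.97 and 56.9 FPKM in DMSO and 93.7 and 95.5 FPKM in IR (log2 fold change 0.69 ± 0.04, adjusted p = 5.71e-05). The 4 higher synthesis genes were PYCRL (0.7), GOT2 (0.31), AMD1 (0.15) and AHCY (0.11), and 1 or 2 of them were called when any 1 of the 4 libraries was left out. AHCY lost its call without each of the 4 (adjusted p from 0.105 to 0.135), without either AZD6738 library (0.0725 and 0.0728), blocked by letter (0.0502) and with no intensity trend (0.0535), AMD1 without DMSO A, IR A or IR B (0.0768 to 0.116) and GOT2 without DMSO B or IR A (0.0658 and 0.0686).

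Mitochondrial energy genes were mostly lower, by small amounts. Of 63 genes of the tricarboxylic acid cycle and respiratory chain, 41 were lower (65.1%, against 40.2% of all genes) and 3 higher (4.76%, against 23.8%). The list median was -0.26. IDH2, the mitochondrial isocitrate dehydrogenase, stood at 9.38 and 9.26 FPKM in DMSO and 3.78 and 3.69 FPKM in IR (log2 fold change -1.12 ± 0.04, adjusted p = 1.92e-05), TFAM, which packs and transcribes mitochondrial DNA, at 10.3 and 12.1 FPKM in DMSO and 4.7 and 4.93 FPKM in IR (log2 fold change -1.06 ± 0.18, adjusted p = 0.00316), and CYC1, cytochrome c1, at 332 and 324 FPKM in DMSO and 165 and 159.6 FPKM in IR. FH and SUCLG1 of the cycle had log2 fold changes of -0.86 and -0.78. The higher members were SDHC (0.36), COX6B1 (0.31) and NDUFB3 (0.3). COX6B1 and NDUFB3 each lost their calls without DMSO A, IR A or IR B (adjusted p from 0.0600 to 0.152), NDUFB3 having a log2 fold change of 0.17 without DMSO A. NDUFB3 also lost it with only the DMSO and IR libraries (0.0634) and without either AZD6738+IR library (0.0604 and 0.0607), and the count of higher members was 1 without DMSO A. A list named for glycolysis and the pentose phosphate pathway also held other genes, among them ADM, BNIP3, CA12, CA9, EGLN3 and NDRG1. Of its 33 tested genes, 8 were higher (24.2%, against 23.8% of all genes) and 8 lower (24.2%, against 40.2%). ADM, BNIP3 and CA12 were among the higher ones. The median was 0.01, and the share called higher was near that of all genes. LDHA, lactate dehydrogenase, stood at 483 and 478 FPKM in DMSO and 905 and 879 FPKM in IR (log2 fold change 0.89 ± 0.05, adjusted p = 6.84e-05), and TKT, transketolase, at 473 and 464 FPKM in DMSO and 215 and 219 FPKM in IR (log2 fold change -1.11 ± 0.04, adjusted p = 1.92e-05). ADM, adrenomedullin, a peptide hormone induced by low oxygen, rose from 2.16 ± 0.284 to 7.77 ± 0.183 FPKM.

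**Figure D3:**
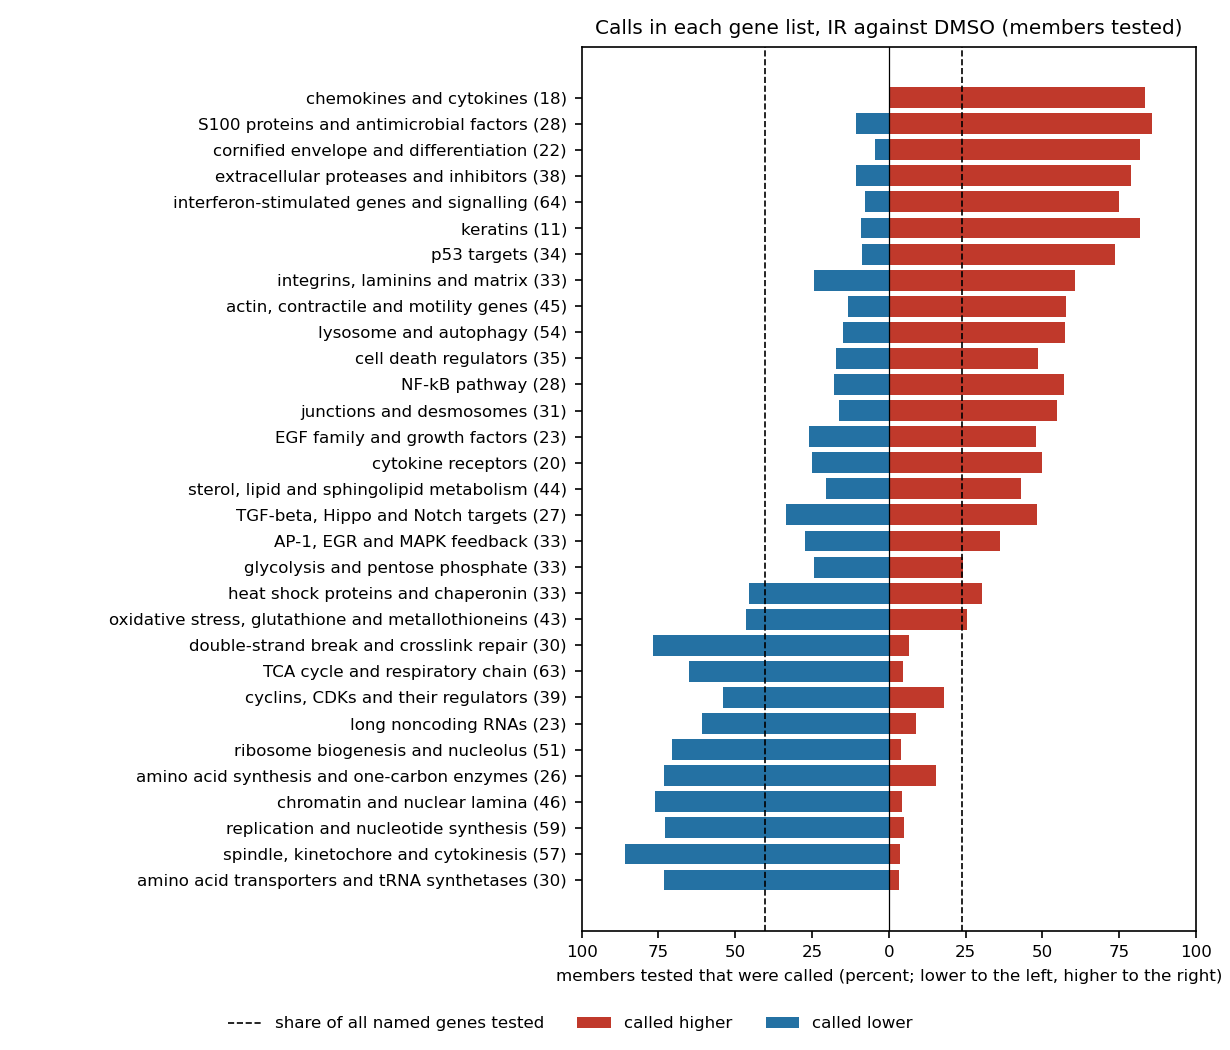
Share of tested members called higher (red, to the right) and lower (blue, to the left) in each of 31 gene lists, in percent, with the number of members tested in parentheses. The dashed lines are the shares of all named genes tested, 23.8% higher and 40.2% lower. Chemokines and cytokines, S100 proteins and cornified envelope genes lie at the top, and mitotic, replication, chromatin and amino acid genes at the bottom.

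Among secreted signals, chemokines and cytokines were mostly higher, and none was called lower. Of 18 tested, 15 were higher (83.3%, against 23.8% of all genes), with a median of 1.06. CXCL1, a ligand of the neutrophil receptor CXCR2 (chromosome 4, 73869393 to 73871308), stood at 7.41 and 7.8 FPKM in DMSO and 148 and 141 FPKM in IR (log2 fold change 4.08 ± 0.07, adjusted p = 6.14e-06). LIF, of the interleukin 6 family, stood at 3.68 and 3.34 FPKM in DMSO and 25.9 and 23.1 FPKM in IR (log2 fold change 2.5 ± 0.07, adjusted p = 1.30e-05). IL1A, the interleukin 1 alarmin, stood at 33.5 and 30.4 FPKM in DMSO and 93.3 and 86.7 FPKM in IR (log2 fold change 1.47 ± 0.07, adjusted p = 3.56e-05), and its antagonist IL1RN at 3.0 and 3.81 FPKM in DMSO and 14.3 and 13.5 FPKM in IR (log2 fold change 1.76 ± 0.15, adjusted p = 0.000203), so that the ligand and its antagonist were higher together. IL36G, an interleukin 1 relative of keratinocytes, stood at 2.39 and 2.02 FPKM in IR, against listed values of 0 in DMSO A and DMSO B. IL36G passed the filter of a mean of 1 FPKM only through groups other than DMSO, so its call supports nothing by itself. IL32 had a log2 fold change of 1.56. IL6, the cytokine most often named in senescence, stayed low, at 0.0191 and 0 FPKM in DMSO and 0.377 and 0.501 FPKM in IR (log2 fold change 0.51 ± 0.06, adjusted p = 0.000753), and its call was lost under quantile normalization (adjusted p = 0.108). IL6 passed the filter of a mean of 1 FPKM only through the AZD6738+IR libraries. IL36G and IL6 are both among the 15 counted as higher.

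Receptors of cytokines went both ways. Of 20 cytokine receptors, 10 were higher (50%, against 23.8% of all genes) and 5 lower (25%, against 40.2%). Their median was 0.17, and fewer were called higher without IR library A. TNFRSF12A, the receptor of TWEAK, stood at 76.9 and 66.3 FPKM in DMSO and 108 and 109.6 FPKM in IR (log2 fold change 0.6 ± 0.08, adjusted p = 0.00132). OSMR, of the oncostatin M receptor, and IFNAR1, of the type I interferon receptor, rose by 0.33 and 0.36 log2 units. CSF1R, known as the macrophage receptor of CSF1, stood at 0.726 and 0.747 FPKM in DMSO and 4.83 and 4.59 FPKM in IR (log2 fold change 1.72 ± 0.08, adjusted p = 2.96e-05), while CD14, another marker of myeloid cells, stood at 15.8 and 15.6 FPKM in DMSO and 12.9 and 13.2 FPKM in IR (log2 fold change -0.25 ± 0.04, adjusted p = 0.00229). IL6ST, the shared receptor gp130, had a log2 fold change of 0.49 and lost its call without DMSO B (adjusted p = 0.0631) or IR A (0.0714). The 5 lower receptors were IL17RC (-0.52), IL1R1 (-0.36), IL27RA (-0.33), IL6R (-0.32) and IL10RB (-0.17). IL10RB lost its call without DMSO B (adjusted p = 0.108), without IR B (0.116), with centred libraries (0.109), under quantile normalization (0.359), when scaled without the 4 most abundant loci (0.0644) and with only the DMSO and IR libraries (0.0636).

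NF-kB is a transcription factor that only some of these receptors act through, and more of its pathway genes were higher than lower. Of 28 pathway genes, 16 were higher (57.1%, against 23.8% of all genes) and 5 lower (17.9%, against 40.2%). The list median was 0.24. With only the DMSO and IR libraries 13 were called higher. The count of higher members was also smaller when any 1 of these 4 libraries was left out. ICAM1, an adhesion protein and target, stood at 5.19 and 5.07 FPKM in DMSO and 15.1 and 14.7 FPKM in IR (log2 fold change 1.37 ± 0.05, adjusted p = 2.15e-05). TNFAIP3, the feedback inhibitor A20, and its partner TNIP1 rose by 1.03 and 1.03 log2 units. MYD88, the adaptor of Toll-like and interleukin 1 receptors, stood at 3.44 and 3.33 FPKM in DMSO and 8.45 and 7.85 FPKM in IR (log2 fold change 1.06 ± 0.08, adjusted p = 0.000141), and IKBKE, a kinase of the interferon arm, rose by 1.09. The lower members were TRAF5 (-0.42), REL (-0.35), TNIP2 (-0.25), IRAK4 (-0.2) and NFKB1 (-0.17). IRAK4 lost its call without DMSO B, IR A or IR B (adjusted p of 0.0968, 0.0906 and 0.0650) and with centred libraries (0.0608), and NFKB1 lost it with centred libraries (0.0604) and under quantile normalization (0.322).

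Growth factors and their feedback genes went both ways. Of 23 growth factor genes, 11 were higher (47.8%, against 23.8% of all genes) and 6 lower (26.1%, against 40.2%), with a median of 0.19. With only the DMSO and IR libraries 9 were called higher, and EREG (0.2) was not called (adjusted p = 0.0555). Fewer than 11 were also called higher when any single library was left out. PDGFA (-0.8) lost its call without DMSO A, DMSO B or IR A. ANGPTL4, a secreted lipase inhibitor, stood at 45.7 and 37.8 FPKM in DMSO and 172 and 171 FPKM in IR (log2 fold change 2.02 ± 0.11, adjusted p = 5.03e-05). CYR61, a matrix protein and target of YAP, stood at 0.926 and 0.768 FPKM in DMSO and 5.61 and 5.71 FPKM in IR (log2 fold change 1.85 ± 0.06, adjusted p = 1.36e-05). IGFBP3, which binds insulin-like growth factors, stood at 0.249 and 0.231 FPKM in DMSO and 2.21 and 2.22 FPKM in IR (log2 fold change 1.37 ± 0.06). CYR61 and IGFBP3 passed the filter of a mean of 1 FPKM only through groups other than DMSO. WNT7A and INHBA, the activin A subunit, rose by 0.89 and 0.88 log2 units. STC2, stanniocalcin 2, fell, with a log2 fold change of -0.94. GDF15, a stress cytokine of the same list, was not called, at 47.4 and 38.6 FPKM in DMSO and 44.5 and 40.4 FPKM in IR (log2 fold change -0.01 ± 0.14, adjusted p = 0.956), and its sign changed with the scaling and with the libraries left out. EGFR, the receptor of the factor in the medium, stood at 21 and 18.9 FPKM in DMSO and 20.8 and 20.1 FPKM in IR (log2 fold change 0.03 ± 0.07, adjusted p = 0.683), and its sign was negative without DMSO B (log2 fold change -0.039). Of 33 genes of AP-1, EGR and MAPK feedback, 12 were higher (36.4%, against 23.8% of all genes) and 9 lower (27.3%, against 40.2%). Their median was 0.03. ETV4, a target of MAPK signalling, stood at 10.7 and 9.5 FPKM in DMSO and 3.55 and 3.41 FPKM in IR (log2 fold change -1.3 ± 0.07, adjusted p = 4.08e-05), and the immediate early genes EGR1 and FOS stood at 3.16 and 2.95 FPKM in DMSO and 1.01 and 1.0 FPKM in IR, and at 21.8 and 21.6 FPKM in DMSO and 14 and 13.2 FPKM in IR, both lower (log2 fold changes -1.02 and -0.64). ATF3, a stress factor of the same family, stood at 0.73 and 0.873 FPKM in DMSO and 3.05 and 2.58 FPKM in IR (log2 fold change 1.08 ± 0.08, adjusted p = 0.000147).

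Genes of TGF-beta, Hippo and Notch signalling were divided. Their list mixed targets with receptors, ligands and other parts of the pathways. Of 27, 13 were higher (48.1%, against 23.8% of all genes) and 9 lower (33.3%, against 40.2%), with a median of 0.09. ANKRD1, a target of YAP, stood at 0.0262 and 0.00836 FPKM in DMSO and 2.57 and 2.67 FPKM in IR (log2 fold change 1.83 ± 0.05). ANKRD1 passed the filter of a mean of 1 FPKM only through groups other than DMSO. TGFBR2, the TGF-beta receptor, stood at 33.1 and 34.2 FPKM in DMSO and 76 and 73.1 FPKM in IR (log2 fold change 1.12 ± 0.06, adjusted p = 5.56e-05). AXL, another YAP target, stood at 12.2 and 10.7 FPKM in DMSO and 2.6 and 2.83 FPKM in IR (log2 fold change -1.74 ± 0.07, adjusted p = 2.65e-05), and the YAP partners TEAD2 and TEAD4 had log2 fold changes of -0.79 and -0.84. So CYR61 and ANKRD1 were higher while AXL and the TEAD factors were lower. SMAD4, the shared signal carrier of the TGF-beta family, fell from 7.18 ± 0.0185 to 3.9 ± 0.0773 FPKM.

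Interferon genes were mostly higher. Of 64 interferon-stimulated and signalling genes, 48 were higher (75%, against 23.8% of all genes) and 5 lower (7.81%, against 40.2%). The list median was 0.60. IFI6, a mitochondrial antiviral protein, stood at 2.32 and 3.11 FPKM in DMSO and 39.7 and 43.8 FPKM in IR (log2 fold change 3.53 ± 0.12, adjusted p = 1.78e-05). ISG15, the ubiquitin-like modifier, stood at 1.99 and 2.98 FPKM in DMSO and 28.6 and 35.8 FPKM in IR (log2 fold change 3.26 ± 0.16, adjusted p = 3.68e-05), and IFIT1, which binds foreign RNA caps, at 0.542 and 0.709 FPKM in DMSO and 9.92 and 11.3 FPKM in IR (log2 fold change 2.84 ± 0.07, adjusted p = 1.19e-05). The 3 IFIT genes tested in the IFIT cluster on chromosome 10 were higher, with IFIT3 at 2.25 and IFIT5 at 0.46 log2 units. IFI27 rose by 3.07, although it has 2 entries in the table. The 5 lower members were TRIM25, a ubiquitin ligase of RNA sensing (-0.59), SOCS2 (-0.54), IRF5 (-0.25), LAP3 (-0.23) and SOCS3 (-0.21). IRF5 lost its call without DMSO A, IR A or IR B (adjusted p of 0.0822, 0.0739 and 0.0631), LAP3 under quantile normalization (0.0668), and 3 members were lower without DMSO A or without IR B.

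The promoters of IFI6 and ISG15 are shown for the interferon-stimulated response element (ISRE), the site of the factor ISGF3. The letters searched, on both strands, were GAAA, any 2 bases and GAAA again, and capitals mark the matches. Sequences are RefSeq on GRCh38.p14, chr1:27672143-27672442 on the minus strand for IFI6 and chr1:1013247-1013546 on the plus strand for ISG15.
IFI6: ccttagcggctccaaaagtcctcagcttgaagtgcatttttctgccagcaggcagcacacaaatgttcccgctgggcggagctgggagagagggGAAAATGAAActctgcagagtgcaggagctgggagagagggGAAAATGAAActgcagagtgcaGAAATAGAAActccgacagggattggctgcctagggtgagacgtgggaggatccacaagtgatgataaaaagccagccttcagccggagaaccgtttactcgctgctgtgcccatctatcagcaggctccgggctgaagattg
ISG15: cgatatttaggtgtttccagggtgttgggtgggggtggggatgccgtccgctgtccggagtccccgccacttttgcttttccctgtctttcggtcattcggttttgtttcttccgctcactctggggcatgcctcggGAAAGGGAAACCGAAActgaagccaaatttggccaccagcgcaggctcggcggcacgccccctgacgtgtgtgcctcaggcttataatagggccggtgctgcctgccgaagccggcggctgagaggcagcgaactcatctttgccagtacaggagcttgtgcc
IFI6 held 3 matches, beginning 156, 115 and 93 bases before the start, and ISG15 held 2 that overlap, beginning 113 and 107 bases before it. These letters were in 3.65% of all promoters and in 3.03% of those of tested genes. In genes called higher by at least 1 log2 unit they were in 10.3% of promoters, or 4.76% once the listed interferon genes were set aside. They were in 4.11% of the promoters of genes called lower by at least 1 log2 unit.

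Antimicrobial factors were mostly higher. Of 28 S100 and antimicrobial genes, 24 were higher (85.7%, against 23.8% of all genes) and 3 lower (10.7%, against 40.2%). The list median was 0.94. S100A8, a subunit of calprotectin, stood at 169.8 and 179.9 FPKM in DMSO and 1421 and 1237 FPKM in IR (log2 fold change 2.92 ± 0.11, adjusted p = 2.32e-05), so that it was high in DMSO as well. LCN2, lipocalin 2, which binds bacterial siderophores, stood at 1.78 and 2.12 FPKM in DMSO and 34.1 and 29.3 FPKM in IR (log2 fold change 3.47 ± 0.10, adjusted p = 1.25e-05). CFB, complement factor B, stood at 0.872 and 1.82 FPKM in DMSO and 25.9 and 10.8 FPKM in IR (log2 fold change 2.96 ± 0.39, adjusted p = 0.00119), with 3 entries in the table and a wide gap between its IR libraries. The 3 lower members were CD55, which protects cells from complement (46 and 44.2 FPKM in DMSO and 22.5 and 21.1 FPKM in IR), S100A14 (-0.64) and CD14 (-0.25).

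Differentiation genes of the upper epidermis were mostly higher too. Of 22 cornified envelope and differentiation genes, 18 were higher (81.8%, against 23.8% of all genes) and 1 lower (4.55%, against 40.2%). The list median was 0.89. IVL, involucrin, a precursor of the envelope, stood at 1.15 and 1.14 FPKM in DMSO and 15.6 and 13.6 FPKM in IR (log2 fold change 2.86 ± 0.10, adjusted p = 1.78e-05). SPRR2A and SPRR2D, small proline-rich envelope proteins with near-identical copies, stood at 8.2 and 10.6 FPKM in DMSO and 64.5 and 48.4 FPKM in IR, and at 10.6 and 12.2 FPKM in DMSO and 68.4 and 52.4 FPKM in IR. SCEL, sciellin, stood at 4.01 and 4.77 FPKM in DMSO and 27.6 and 27.6 FPKM in IR (log2 fold change 2.41 ± 0.07, adjusted p = 1.30e-05) and A2ML1, a protease inhibitor of the granular layer, at 0.368 and 0.347 FPKM in DMSO and 5.96 and 5.12 FPKM in IR (log2 fold change 2.27 ± 0.09, adjusted p = 2.50e-05). The lower member was PPL, periplakin (-0.14), which lost its call without IR B (adjusted p = 0.0547), with centred libraries (0.0721) and under quantile normalization (0.261). Many of these genes lie in the epidermal differentiation complex on chromosome 1, between 151870866 and 153670993. Of 23 genes tested there, 17 were higher (73.9%) and 1, S100A14, was lower (4.35%), with a median of 0.93.

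**Figure D4:**
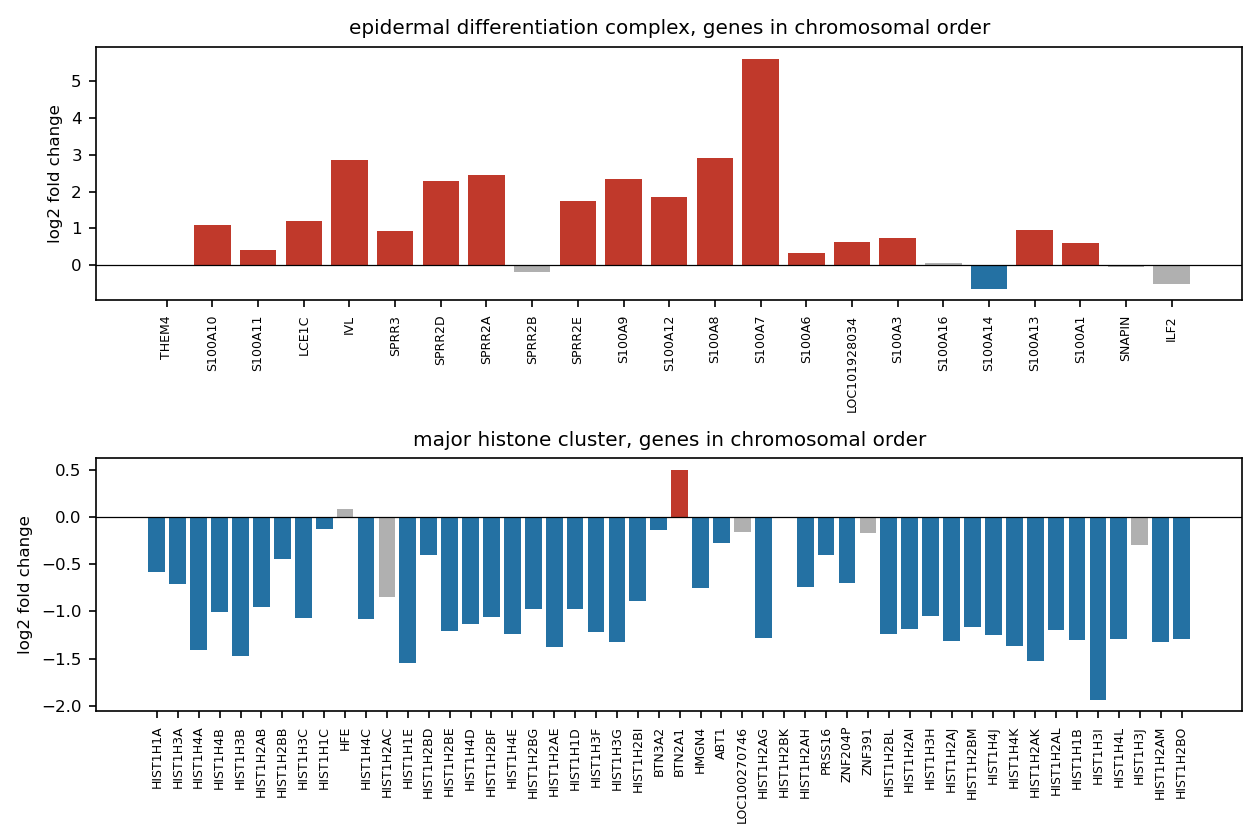
Log2 fold change of IR over DMSO (bars) for the tested genes of the epidermal differentiation complex on chromosome 1 (upper panel) and of the major histone cluster on chromosome 6 (lower panel), in chromosomal order. Red bars were called higher, blue bars lower, and grey bars were not called. The upper panel is mostly red, with S100A7 the tallest bar at 5.62, and the lower panel is mostly blue, with HIST1H3I the deepest at -1.93.

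The promoters of IVL and SPRR2A are shown for an AP-1 site, the element bound by FOS and JUN proteins. The letters TGANTCA were searched on both strands, and capitals mark the match. Sequences are RefSeq on GRCh38.p14, chr1:152908296-152908595 on the plus strand for IVL and chr1:153057463-153057762 on the minus strand for SPRR2A.
IVL: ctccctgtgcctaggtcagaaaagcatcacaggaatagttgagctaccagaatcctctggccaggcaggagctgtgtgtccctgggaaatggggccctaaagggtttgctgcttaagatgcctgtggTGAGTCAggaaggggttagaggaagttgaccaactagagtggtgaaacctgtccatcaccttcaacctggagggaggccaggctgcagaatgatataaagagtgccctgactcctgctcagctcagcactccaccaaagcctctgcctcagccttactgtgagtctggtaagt
SPRR2A: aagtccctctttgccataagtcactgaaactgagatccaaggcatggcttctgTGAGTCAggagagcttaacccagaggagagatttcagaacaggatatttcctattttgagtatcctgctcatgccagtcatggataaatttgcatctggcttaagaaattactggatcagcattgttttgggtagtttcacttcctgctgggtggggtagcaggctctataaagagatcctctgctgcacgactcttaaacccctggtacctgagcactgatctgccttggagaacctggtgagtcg
The match began 123 bases before the start in IVL and 197 bases before it in SPRR2A. It was in 7.90% of all promoters, 4.86% of those of tested genes, 14.3% of those of genes called higher by at least 1 log2 unit and 4.11% of those of genes called lower by as much.

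Keratins were mostly higher. Of 11 tested, 9 were higher (81.8%, against 23.8% of all genes) and 1 lower (9.09%, against 40.2%), with a median of 0.52. KRT8, of simple and luminal epithelium, stood at 44 and 45.5 FPKM in DMSO and 135 and 135 FPKM in IR (log2 fold change 1.58 ± 0.06, adjusted p = 2.11e-05). KRT16, of wounded and hyperproliferative epidermis, stood at 65 and 65.8 FPKM in DMSO and 187 and 197 FPKM in IR (log2 fold change 1.54 ± 0.04, adjusted p = 1.25e-05), and KRT80 and KRT4, of differentiating layers, rose by 1.5 and 1.58 log2 units. KRT17 stood at 1165 and 1137 FPKM in DMSO and 1710.3 and 1709 FPKM in IR (log2 fold change 0.57 ± 0.05, adjusted p = 0.00016). KRT15, of basal cells, was the lower one, at 66.4 and 74.5 FPKM in DMSO and 47.2 and 47.2 FPKM in IR (log2 fold change -0.57 ± 0.09, adjusted p = 0.00198). KRT14, the basal keratin, had a log2 fold change of 0.25 and lost its call without DMSO A, IR A or IR B (adjusted p of 0.122, 0.0536 and 0.121). KRT7 (0.28) lost its call without DMSO B, IR A or IR B (0.0850, 0.0720 and 0.0639). TP63, the master factor of basal epithelium, stood at 12.2 and 11.7 FPKM in DMSO and 7.98 and 7.32 FPKM in IR (log2 fold change -0.58 ± 0.06, adjusted p = 0.000506). KRT14, KRT16 and KRT17 share long stretches of sequence, so reads may be shared among them.

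Junction genes were more often higher. Of 31, 17 were higher (54.8%, against 23.8% of all genes) and 5 lower (16.1%, against 40.2%), with a median of 0.22. CLDN4 and CLDN1, claudins of tight junctions, stood at 5.66 and 6.36 FPKM in DMSO and 42.7 and 37.9 FPKM in IR, and at 11.3 and 11.2 FPKM in DMSO and 44.2 and 42 FPKM in IR (log2 fold changes 2.56 and 1.85). CGN, cingulin of the tight junction plaque, rose by 1.49. The lower members were EPCAM (26.3 and 26.9 FPKM in DMSO and 19.9 and 18.9 FPKM in IR), PKP4 (-0.33), PKP3 (-0.32), PARD3 (-0.21) and DSC3 (-0.2), and the DSC3 call was lost when DMSO B was left out (adjusted p = 0.0539), when IR A was left out (0.0621) and under quantile normalization (0.0939). Plakophilins and desmocollin 3 are desmosome proteins, PARD3 sets cell polarity and EPCAM is an epithelial adhesion protein.

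Proteases and their inhibitors were both mostly higher. Of 38, 30 were higher (78.9%, against 23.8% of all genes) and 4 lower (10.5%, against 40.2%), with a median of 0.64. CPA4, a carboxypeptidase, stood at 1.32 and 1.38 FPKM in DMSO and 26.6 and 27.2 FPKM in IR (log2 fold change 3.57 ± 0.06, adjusted p = 6.14e-06) and KLK7, a kallikrein that sheds the outer epidermis, at 16.5 and 18.1 FPKM in DMSO and 118 and 112 FPKM in IR (log2 fold change 2.67 ± 0.09, adjusted p = 2.00e-05). Among inhibitors, SERPINB7 stood at 0.939 and 1.02 FPKM in DMSO and 19.8 and 18.9 FPKM in IR (log2 fold change 3.36 ± 0.05, adjusted p = 6.14e-06) and SERPINB2, plasminogen activator inhibitor 2, at 3.0 and 2.82 FPKM in DMSO and 33.9 and 31 FPKM in IR (log2 fold change 3.09 ± 0.07, adjusted p = 8.41e-06). SPINK6, a kallikrein inhibitor, rose by 2.7. MMP3, stromelysin, stayed under the filter, at 0.0272 and 0.0672 FPKM in DMSO and 0.465 and 0.328 FPKM in IR, and was not tested. The lower members were the cathepsins CTSH (-0.87) and CTSL (-0.48), MMP28 (-0.36), which has several entries, and SERPINB1 (-0.24), whose call was lost without IR B (adjusted p = 0.0543) and under quantile normalization (0.0838). In the serpin B cluster on chromosome 18, all 4 serpin genes tested were higher, and in the kallikrein cluster on chromosome 19, all 4 kallikreins tested were higher. The 2 other genes there were lower, CTU1 and SNORD88C, a snoRNA whose call was lost without DMSO A (adjusted p = 0.0667) or IR B (0.0786).

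Matrix genes were more often higher, and the type IV collagens were lower. Of 33 integrin, laminin and matrix genes, 20 were higher (60.6%, against 23.8% of all genes) and 8 lower (24.2%, against 40.2%). The list median was 0.39. COL4A1 and COL4A2, which are transcribed from 1 shared promoter region and form the main network of the basement membrane, stood at 3.79 and 3.56 FPKM in DMSO and 1.21 and 1.18 FPKM in IR, and at 8.29 and 7.54 FPKM in DMSO and 1.89 and 1.79 FPKM in IR (log2 fold changes -1.09 and -1.65). LAMB1, a laminin chain, also fell (-1.25). COL8A1 stood at 2.03 and 1.97 FPKM in DMSO and 14.5 and 13.3 FPKM in IR (log2 fold change 2.31 ± 0.09, adjusted p = 2.47e-05), TNC, tenascin C of wounds, at 1.45 and 1.36 FPKM in DMSO and 7.43 and 6.31 FPKM in IR (log2 fold change 1.71 ± 0.08, adjusted p = 3.17e-05), and ITGB6, of the integrin that activates TGF-beta, at 6.97 and 6.69 FPKM in DMSO and 23.7 and 23.2 FPKM in IR (log2 fold change 1.64 ± 0.06, adjusted p = 1.84e-05). COL7A1, of anchoring fibrils, and PLOD2, a collagen lysyl hydroxylase, rose by 0.96 and 1.18. Of the fibroblast markers, DCN and FAP were found, with log2 fold changes of 0.41 and 1.66.

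Actin and contractile genes were more often higher. Of 45 actin, contractile and motility genes, 26 were higher (57.8%, against 23.8% of all genes) and 6 lower (13.3%, against 40.2%). The list median was 0.30. MYL9, the regulatory light chain of smooth muscle and non-muscle myosin, stood at 0.927 and 0.668 FPKM in DMSO and 7.45 and 6.18 FPKM in IR (log2 fold change 2.12 ± 0.12, adjusted p = 5.94e-05), and TAGLN, transgelin, at 1.38 and 1.31 FPKM in DMSO and 8.73 and 8.46 FPKM in IR (log2 fold change 2.03 ± 0.04, adjusted p = 7.47e-06). TPM1, tropomyosin, and ANXA1, annexin A1, rose by 1.09 and 1.09. FSCN1, fascin of filopodia, stood at 81.8 and 72.3 FPKM in DMSO and 19.8 and 31.9 FPKM in IR (log2 fold change -1.57 ± 0.28, adjusted p = 0.00421), and VIM, vimentin, at 158 and 160.4 FPKM in DMSO and 57.8 and 56.1 FPKM in IR (log2 fold change -1.47 ± 0.06, adjusted p = 2.46e-05). The cytoplasmic actins parted, ACTB rising by 0.38 and ACTG1 having a log2 fold change of -0.44. Both actin genes have near-identical copies. GAPDH, often taken as a constant control, stood at 3215 and 3203 FPKM in DMSO and 3689.6 and 3548 FPKM in IR (log2 fold change 0.17 ± 0.07, adjusted p = 0.0798), and it was called higher with centred libraries (adjusted p = 0.0165), when scaled without the 4 most abundant loci (0.0274), with only the DMSO and IR libraries (0.0145) or without either AZD6738+IR library (0.0117 and 0.0116). Under quantile normalization the log2 fold change of GAPDH was 0.00. That method gives a locus of the same rank in every library the same value, so the 0.00 does not tell whether its level changed.

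**Figure D5:**
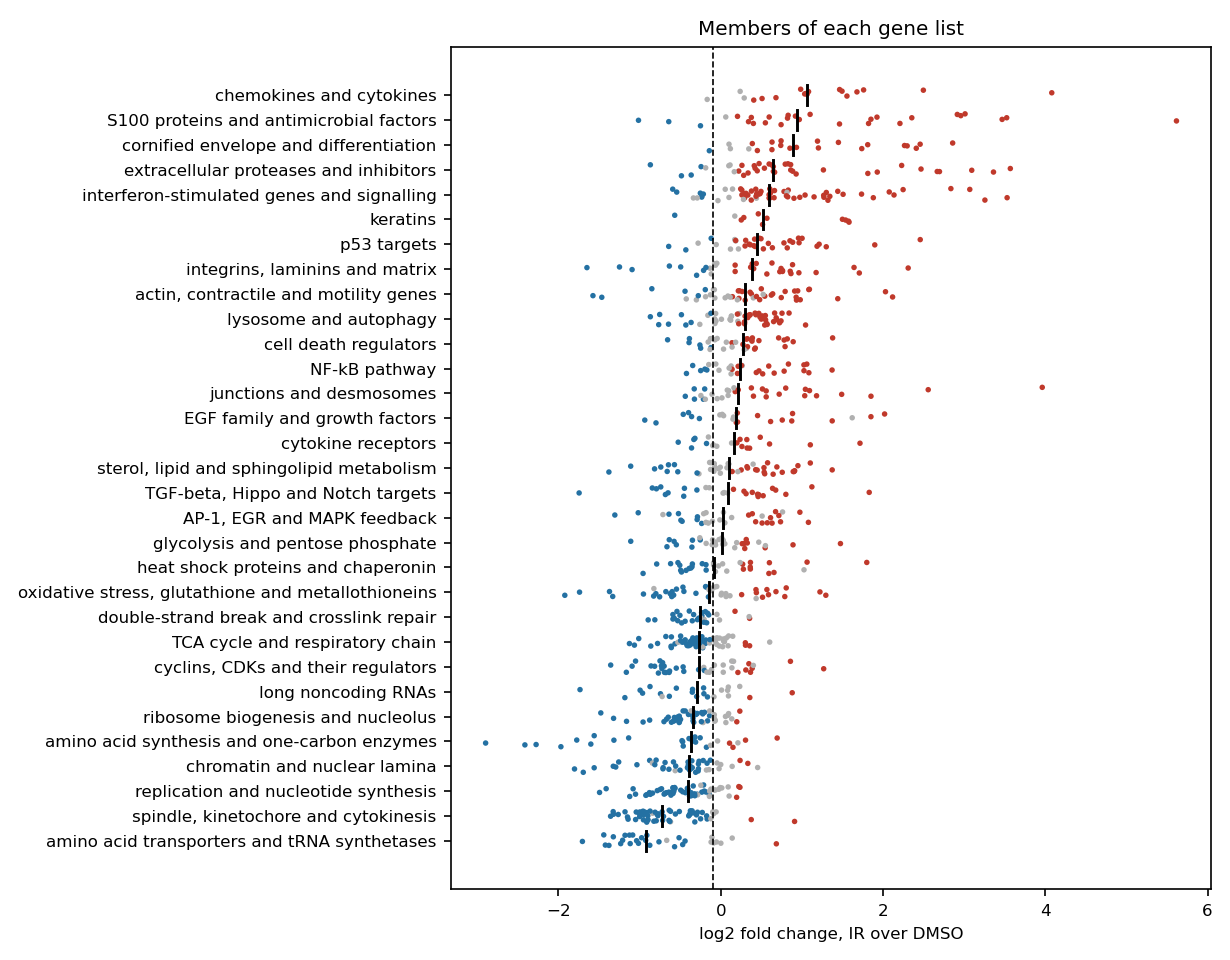
Log2 fold change of IR over DMSO for every tested member of the 31 gene lists, 1 point a gene, red for called higher, blue for called lower and grey for not called. The black bar is the median of a list and the dashed line the median of all tested genes, -0.10. The medians run from -0.92 for amino acid transporters and tRNA synthetases to 1.06 for chemokines and cytokines, and most lists hold genes on both sides of 0.

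Lysosomal genes were more often higher. Of 54 lysosome and autophagy genes, 31 were higher (57.4%, against 23.8% of all genes) and 8 lower (14.8%, against 40.2%). The list median was 0.29. ARSA, arylsulfatase A, stood at 1.24 and 1.13 FPKM in DMSO and 4.04 and 3.04 FPKM in IR (log2 fold change 1.05 ± 0.13, adjusted p = 0.000873), and LIPA, the acid lipase, at 47 and 49.1 FPKM in DMSO and 86.3 and 87.5 FPKM in IR (log2 fold change 0.84 ± 0.04, adjusted p = 2.94e-05). ATP6V0E1 and ATP6V0D1, subunits of the proton pump, rose by 0.76 and 0.73, and OPTN, an autophagy receptor, by 0.74. CTSH, PPT1, a thioesterase, and ATG3, an enzyme of autophagosome growth, went the other way, with log2 fold changes of -0.87, -0.76 and -0.75.

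Genes of oxidative stress, glutathione and metallothioneins were called in shares near those of all genes. Of 43, 11 were higher (25.6%, against 23.8% of all genes) and 20 lower (46.5%, against 40.2%), with a median of -0.14. AKR1C2 and AKR1C1, aldo-keto reductases that are near-identical, stood at 17.9 and 18.1 FPKM in DMSO and 4.04 and 4.0 FPKM in IR, and at 49.1 and 50.2 FPKM in DMSO and 13.9 and 14.5 FPKM in IR. FTL, ferritin light chain, stood at 478 and 476 FPKM in DMSO and 182 and 186 FPKM in IR (log2 fold change -1.37 ± 0.03, adjusted p = 7.90e-06), and NQO1, a quinone reductase, at 92.9 and 92.9 FPKM in DMSO and 45.2 and 49.96 FPKM in IR (log2 fold change -0.95 ± 0.06, adjusted p = 6.47e-05). These 4 genes are textbook targets of the antioxidant factor NRF2, and were picked out by the size of their change. MT1X, a metallothionein, fell, with a log2 fold change of -1.33, and of 5 metallothionein genes tested in their cluster on chromosome 16, 4 were lower and none higher. MT2A, 1 of the 4, lost its call without any 1 of the DMSO or IR libraries (adjusted p from 0.0647 to 0.197), without either AZD6738 library (0.0747 and 0.0746) and under each of the 3 other scalings (0.0574 to 0.0731). TXNIP, which binds thioredoxin and is induced by glucose, stood at 62.5 and 64.9 FPKM in DMSO and 160.5 and 155 FPKM in IR (log2 fold change 1.3 ± 0.18, adjusted p = 0.00153), and ALDH1A3, which makes retinoic acid, at 40.7 and 44.6 FPKM in DMSO and 102 and 99.8 FPKM in IR (log2 fold change 1.22 ± 0.05, adjusted p = 2.54e-05).

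Chaperones were also called in shares near those of all genes. Of 33, 10 were higher (30.3%) and 15 lower (45.5%), with a median of -0.09. CRYAB, alpha B crystallin, stood at 0.587 and 0.802 FPKM in DMSO and 5.02 and 4.76 FPKM in IR (log2 fold change 1.8 ± 0.09, adjusted p = 3.47e-05), and HSPB1, Hsp27, at 95.6 and 105 FPKM in DMSO and 217 and 203 FPKM in IR (log2 fold change 1.06 ± 0.14, adjusted p = 0.0012). HSPA13, HSPA9, the mitochondrial Hsp70, and the chaperonin subunits CCT4, CCT8 and TCP1 had log2 fold changes of -0.96, -0.79, -0.62, -0.53 and -0.5.

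Lipid genes were more often higher than lower. Of 44, 19 were higher (43.2%, against 23.8% of all genes) and 9 lower (20.5%, against 40.2%), with a median of 0.10. ACSL5, which activates fatty acids, stood at 0.57 and 0.686 FPKM in DMSO and 3.2 and 3.24 FPKM in IR (log2 fold change 1.37 ± 0.05, adjusted p = 2.13e-05), and ACLY, which makes cytosolic acetyl-CoA, at 83.4 and 87 FPKM in DMSO and 163 and 169 FPKM in IR (log2 fold change 0.95 ± 0.04, adjusted p = 2.93e-05). UGCG, which makes glucosylceramide, and SPHK1, sphingosine kinase, rose by 0.89 and 0.9. ABCG1, a cholesterol exporter, and NR1H3, the receptor LXR alpha that induces it, stood at 8.62 and 7.76 FPKM in DMSO and 2.69 and 2.38 FPKM in IR, and at 3.16 and 2.79 FPKM in DMSO and 1.36 and 1.16 FPKM in IR, both lower (log2 fold changes -1.38 and -0.82). FADS1, a fatty acid desaturase, and SREBF1, the factor SREBP1, fell as well (-1.11 and -0.74).

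Death regulators were more often higher than lower. Of 35, 17 were higher (48.6%, against 23.8% of all genes) and 6 lower (17.1%, against 40.2%), with a median of 0.27. GSDMC, a gasdermin, stood at 0.474 and 0.458 FPKM in DMSO and 2.87 and 2.76 FPKM in IR (log2 fold change 1.38 ± 0.08, adjusted p = 6.55e-05). CFLAR, which blocks caspase 8, BNIP3L, a mitophagy receptor, RIPK4, a kinase of keratinocyte differentiation, and PYCARD, the inflammasome adaptor ASC, rose by 0.78, 0.79, 0.82 and 0.71. BCL2L12 and BCL2L2, relatives of the survival protein BCL2, and MLKL, which executes necroptosis, had log2 fold changes of -0.65, -0.39 and -0.25.

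Listed long noncoding RNAs were mostly lower. Of 23, 2 were higher (8.70%, against 23.8% of all genes) and 14 lower (60.9%, against 40.2%), with a median of -0.30. SNHG7, a host of snoRNAs, stood at 44.9 and 42.9 FPKM in DMSO and 12 and 13 FPKM in IR (log2 fold change -1.73 ± 0.05, adjusted p = 1.32e-05), ZFAS1 at 278 and 270.5 FPKM in DMSO and 119 and 121 FPKM in IR (log2 fold change -1.18 ± 0.04, adjusted p = 2.01e-05), and SNHG6 had a log2 fold change of -0.87. MIR17HG, the host of the miR-17 to miR-92 cluster, fell, with a log2 fold change of -0.99. The higher ones were LINC-PINT, a p53-linked RNA (0.88), and RPPH1, the RNA of RNase P (0.36). RPPH1 was not called under quantile normalization, where its log2 fold change was 0, the value that method gives to a locus of unchanged rank. Across all tested genes with that class in RefSeq, 55 of 227 lncRNA genes were higher (24.2%) and 71 lower (31.3%). Of 7965 protein-coding genes, 1954 were higher (24.5%) and 3290 lower (41.3%). So lncRNA genes as a class were called lower less often than protein-coding genes, unlike those listed.

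The share of calls varied with the span and the level of genes. Among 768 genes spanning under 5 kb, 29.9% were higher and 37.9% lower, and among 2251 genes of 20 to 50 kb, 20.7% were higher and 45.3% lower. Genes over 100 kb, of which 1354 were tested, lay at 23.5% and 41.1%. By level, 28.0% of the 1390 genes under 2 FPKM were higher and 28.6% lower, and 30.0% of the 784 genes over 50 FPKM were higher and 45.9% lower. Level and length are tied to gene class and to the precision of a value, and their part in these shares was not tested.

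The same genes were then read in AZD6738+IR against IR, in which 1767 genes were higher (20.4%) and 2837 lower (32.7%). The inhibitor added to irradiation left CXCL1 at 155 and 138 FPKM (log2 difference from IR 0.02, adjusted p = 0.867) and S100A7 at 156 and 152 FPKM (-0.08, adjusted p = 0.778), so that no difference was detected for either. IFI6 reached 1691 and 1526 FPKM (5.23, adjusted p = 3.67e-06) and ISG15 1604 and 1696 FPKM (5.64, adjusted p = 7.12e-06), far above IR alone. CDKN1A reached 495 and 427 FPKM (0.60, adjusted p = 0.00124). ASNS was at 8.34 and 7.24 FPKM (-0.35, adjusted p = 0.0633), and PI3 at 1203 and 903 FPKM (0.60, adjusted p = 0.0312). This comparison shares the IR libraries with the one above and is not independent of it.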

How the data were processed

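Total RNA of MCF10A cells, depleted of ribosomal RNA and made into stranded paired-end libraries, was sequenced per the labels' protocols. The submitters' processing notes name FastQC, HISAT2 2.0.4, StringTie 1.3.4d and hg38 but state neither the strand setting nor the handling of repeated copies. The deposited table holds a normalized level per locus and library with no unit in its header, taken as FPKM from the values and StringTie, although TPM is possible. The authors' p-value column equals an F test over the 4 groups in 100% of loci (relative tolerance 1e-06) and was not used further. The table was deposited filtered, since every locus reached 1 in some library.

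Symbols came from the table, and coordinates and promoters from RefSeq (GRCh38.p14) by transcript accession for 9349 genes and by symbol for 63, with 51 not matched. Genes with several entries (217 symbols, 299 entries left out) kept the one with the highest mean. limma 3.58.1 in R 4.3.3 was fitted to log2(FPKM + 1) of all 8 libraries, 1 coefficient a group, with an intensity trend, over the 12809 loci that averaged 1 FPKM or more, and 4 residual and 1.79 prior degrees of freedom set the spread. Adjusted p-values are Benjamini-Hochberg over all loci, and a gene was called at 0.05. The fit was tested on simulated data. A lone library left by an omission was assumed to vary like the other groups.

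Genes were named by rule: the 20 largest called rises and falls with at least 5 FPKM in the higher group, up to 5 each way per list with at least 2 FPKM, the ends of each gene cluster, a set of landmark genes and the 5 most abundant symbols. Those groups had to be free of overlap. A few genes that the rule names are not reported here. IL1R1, SOCS3, LINC-PINT, CTU1, the p53 targets not called and the lower genes other than histones in the histone stretch complete counts and were chosen after their values were seen. The members, lists, clusters, motifs and rules were chosen with earlier results of these data known. The library letters did not pair the samples (see the closing section for the block).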

Additional observations from a re-analysis of the deposited data

Results flagged for a closer look

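For 8 of the landmark genes reported here, the effect of irradiation differed with and without AZD6738, by the interaction term of the limma fit (log2, Benjamini-Hochberg adjusted p). Over all tested genes with a symbol the interaction was positive for 1243 (14.3%) and negative for 2044 (23.6%), so such a difference was common. It was positive, the effect of irradiation being higher with the inhibitor, for IL6 (2.10, adjusted p = 6.02e-05), GDF15 (0.73, adjusted p = 0.0360) and KRT14 (0.51, adjusted p = 0.0133). It was negative for IL1A (-1.06, adjusted p = 0.00105), MKI67 (-0.71, adjusted p = 0.00365), LMNB1 (-0.58, adjusted p = 0.00123), TP63 (-0.50, adjusted p = 0.00821) and EGFR (-0.40, adjusted p = 0.0230). IL6 passed the filter on low values only through AZD6738+IR, the group in which it is high, so its interaction is given as a value and supports nothing. It stood at 0.377 and 0.501 FPKM in IR and 5.21 and 5.11 FPKM in AZD6738+IR, and IL1A at 93.3 and 86.7 FPKM in IR and 69.1 and 67.8 FPKM in AZD6738+IR. An interaction also takes in the difference between AZD6738 and DMSO, so these levels alone do not give it.

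Calls were also made among the loci without a symbol, which were not part of the comparison. Of 4143 such loci tested, 974 were called higher and 1384 lower. Counting them in took the share called higher from 23.8% of named genes to 23.7% of all loci, and the share lower from 40.2% to 38.0%. At least 1 log2 unit higher were 258 (6.23%, against 3.37% of named genes), and 93 were lower by as much.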

How the results depend on the processing

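Of 307 named genes, 238 had a value in all 17 alternatives, and 205 of these kept their direction and call in all of them. The other 69 were not tested in some. With a pseudocount of 0.1 in place of 1, 858 loci and 470 named genes were higher by at least 1 log2 unit and 642 loci and 463 named genes lower by as much. With a mean of at least 5 FPKM required, which tests fewer loci, 1722 loci and 1255 named genes were higher, 2964 loci and 2175 named genes lower, and 259 loci and 173 named genes higher by at least 1 log2 unit. Leaving out single libraries gave 2474 to 3114 loci higher and 4054 to 5101 lower, 1674 to 2147 named genes higher and 2928 to 3621 lower, and at 1 log2 unit 525 to 572 loci and 273 to 300 named genes higher, 348 to 386 loci and 255 to 290 named genes lower. With libraries centred on their median, 3658 loci were higher and 4141 lower. GDF15, not called, changed sign with centred libraries (0.056), quantile normalization (0.10), scaling without the 4 most abundant loci (0.034), without DMSO A and without IR B, its values without single libraries running from -0.16 to 0.13, and EGFR changed sign without DMSO B, with a range of -0.039 to 0.11. The cause was not tested.

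The library letter as a replicate block gave 3033 loci higher and 4862 lower, and 2053 named genes higher and 3491 lower. The deviations of same-lettered libraries correlated at r = -0.05 between DMSO and IR and at 0.00 to 0.16 between the other groups, so the letters were not taken to pair the samples. Depth is unknown, which leaves the precision of low genes to the spread between 2 libraries.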
